A study of Mus musculus with 15 samples.

Results

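A set of 9 effector genes of mouse embryonic stem cells (ESCs) was followed through loss of the pluripotency factor OCT4: Dppa2, Dppa4, Dppa5a, Utf1, L1td1, Lin28a, Lin28b, Trim28 and Spp1. They were chosen by name, as 9 of the 48709 genes in the count tables, and with earlier results of these data known. Counts of them beside shares of all genes are therefore descriptions. Each was examined in all 15 RNA-sequencing libraries of 2 time courses. In the CreER course, ESCs of a mixed 129SV and C57BL/6 background carried a floxed Oct4 allele opposite a null allele and a CAG-driven CreER recombinase (genotype Oct4Fl/-; CAG CreER), and 500 nM 4-hydroxytamoxifen (4-OHT) was given to delete Pou5f1, the gene for OCT4. In CreER, 2 libraries were made at each of 0, 12, 18, 24 and 36 h. In the O4AID course, 129SV ZHBT ESCs lacked endogenous Oct4 (Oct4-/-), kept a TetOFF Oct4 transgene silent under 1 µg/ml doxycycline, and lived on an OCT4 fused to an auxin-inducible degron (CAG Oct4AID), with CAG Tir1, the plant receptor that marks the fusion for destruction. Single O4AID libraries were taken before and 1.5, 6, 10 and 24 h after 500 µM indole-3-acetic acid (IAA). The labels give 1 medium for all libraries, N2B27 with the MEK inhibitor PD03, the GSK3 inhibitor Chiron and LIF. For other assays, the study also describes a change to a serum medium with LIF when cells were given 4-OHT. Whether the medium of these libraries differed between the courses, or changed with 4-OHT within CreER, was not tested. Untreated cells stood as controls in both courses, and cells given 4-OHT without CreER or IAA without the degron were not analysed here. Strain, transgenes and route of OCT4 loss, with any difference in medium, differ together between the courses and cannot be told apart.

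These genes act at several layers beneath the core pluripotency factors. DPPA2 and DPPA4 are partner chromatin proteins that occupy bivalent promoters and help open genes of the early cleavage embryo, DPPA5A is a small RNA-binding protein, and UTF1 is a chromatin-bound regulator of bivalent genes. L1TD1 is an RNA-binding protein derived from a retrotransposon and a partner of LIN28. LIN28A and its paralogue LIN28B block maturation of let-7 microRNAs, TRIM28 is the corepressor through which KRAB zinc finger proteins silence retrotransposons, and Spp1 encodes osteopontin, a secreted ligand of integrins and CD44. Utf1 and Spp1 are long known as genes with OCT4-responsive enhancers. Trim28 is broadly expressed in other tissues, and Spp1 is known from bone and macrophages. Restriction to ESCs could not be checked, since every library came from ESCs.

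Library totals were 21.7 M to 30.8 M counted reads in CreER and 40.5 M to 48.7 M in O4AID. The 8 naive ESC markers were detected in both untreated and late libraries of each course, summing to 2023 and 2064 CPM (reads of the gene per 1000000 reads of the library, after scaling) in untreated CreER and 5779 CPM in untreated O4AID. Their sum was 1867 and 1959.9 CPM at 36 h of CreER and 1949 CPM at 24 h of O4AID. The 5 macrophage markers summed to 13.6 and 14.2 CPM in untreated CreER and 17.4 and 17.9 CPM at 36 h, with Cd68, of lysosomes, called higher (0.35, adjusted p = 0.00098, edgeR) and the defining Lyz2 without a read, and to 14.7 and 23.1 CPM at 0 and 24 h of O4AID. The 7 fibroblast markers summed to 8.25 and 8.75 CPM and then 9.54 and 9.92 CPM in CreER, with Col1a2 called higher (1.00, adjusted p = 0.0042, edgeR), and to 5.08 and 2.71 CPM in O4AID. The 6 primitive endoderm markers summed to 5.94 and 6.56 CPM in untreated CreER and to 10.4 CPM in both 36 h libraries. Of the 5 tested at 36 h, Gata6 was called higher (2.60, adjusted p = 6.2e-11, edgeR) and 1 other marker was called lower. The shares of all genes were 18.6% and 18.1%. In O4AID the sum went from 9.70 to 33.7 CPM. Trophectoderm markers summed to 92.3 and 97.5 CPM in untreated CreER and to 220.1 and 234 CPM at 36 h, when 7 of 7 were called higher. In O4AID they summed to 95.5 and 98.4 CPM at 0 and 24 h. The near-equal O4AID sums do not show that each marker stayed level. Of the 7 markers, 4 had enough reads for a ratio at 24 h of O4AID. Their median log2 ratio to 0 h was 0.93, with 1 of the 4 below 0. The part of these shifts in the results below was not tested, and in bulk RNA fewer cells of a type and less RNA per cell cannot be told apart. The labels do not say that the 2 CreER libraries of a time came from separate cultures, so p-values measure the spread between these libraries, which may be technical.

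Pou5f1 itself was followed as a check of the deletion, by reads counted over the whole gene. Its expression in CreER was 321 and 317 CPM untreated, then 220.3 and 228 by 12 h, 163 and 164 by 18 h, 132 and 134 by 24 h and finally 112 and 123 by 36 h. The 36 h libraries lay wholly below the untreated ones, with a log2 fold change of -1.44 ± 0.05 (SE, n = 2 per time, adjusted p = 2.6e-19, edgeR). Whether the reads left at 36 h came from the floxed, the deleted or the null allele was not tested. In O4AID the transcript, by the genotype, comes from the CAG transgene and is not the target of IAA, so its 766, 866, 723, 703 and 633 CPM at 0, 1.5, 6, 10 and 24 h do not measure the protein.

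A single regulatory sequence among the members is shown because it carries the textbook OCT4 motif. RefSeq promoter windows (GRCm38.p6, from 250 bases before a start to 50 after) were matched for 6 of the 9 genes: L1td1, Lin28a, Lin28b, Trim28, Utf1 and Spp1, the last with 2 windows. Both strands were searched for the octamer ATGCAAAT, the sequence that the POU domain of OCT4 is known to recognise. It was present in 570 of 32851 windows (1.74%). Of the 7 member windows, only the second of Spp1 held it. That window lies inside the gene, before an internal start, and the 120 bases printed below fall in the intron between exons ending at 104435248 and starting at 104436192, on the plus strand of chromosome 5. The octamer (104435982 to 104435989, 864 bases past the gene's first base) is in capitals, and is known as part of a palindromic Oct factor element in the Spp1 enhancer.
Spp1, chr5:104435942-104436061: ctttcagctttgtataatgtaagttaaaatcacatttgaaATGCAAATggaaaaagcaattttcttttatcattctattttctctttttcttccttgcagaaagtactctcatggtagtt
The match is a description of the sequence, and binding was not measured in these libraries.

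Before treatment, the same genes stood at very different levels in the 2 lines. Per kilobase of exon, the order of mean levels in untreated CreER was Dppa5a at 860.1 CPM per kilobase, Trim28 at 627, L1td1 at 206, Lin28a at 148, Utf1 at 127, Dppa4 at 71.0, Dppa2 at 64.3, Spp1 at 50.5 and Lin28b at 12.1. Dppa4 (63.7 and 78.3) and Dppa2 (66.1 and 62.6) overlapped between the 2 libraries, and every other pair of neighbours in that order was apart in both. In untreated O4AID the order was Dppa5a at 2171 CPM per kilobase, Trim28 at 323, Spp1 at 298, L1td1 at 79.0, Dppa4 at 36.8, Dppa2 at 35.7, Utf1 at 4.18, Lin28a at 0.633 and Lin28b at 0.135, with the 95% counting intervals of Dppa4 and Dppa2 overlapping. Dppa5a and Trim28 thus led in both lines, while Spp1 was the eighth in CreER and the third in O4AID.

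**Figure D1:**
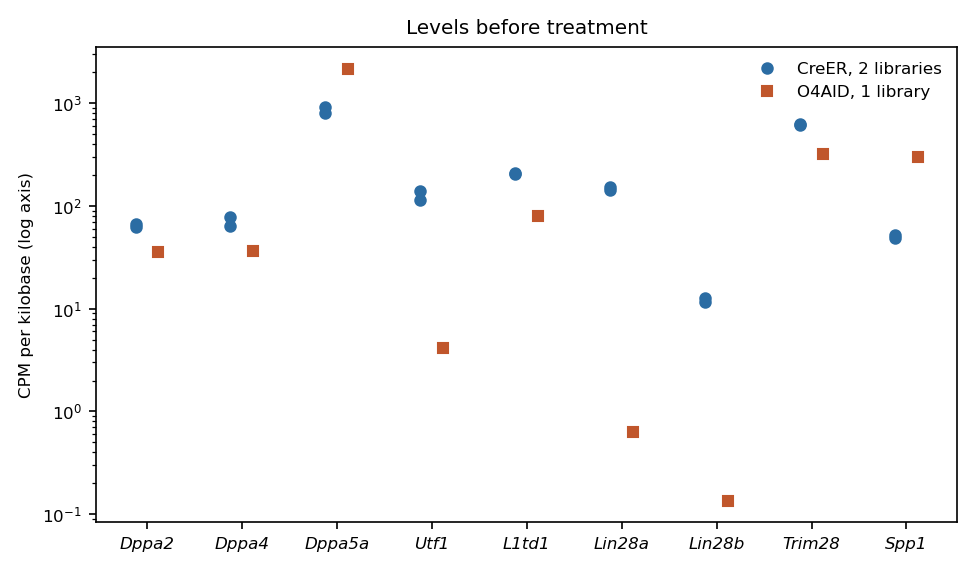
Levels of the 9 genes before treatment in CPM per kilobase of exon, on a log axis, with 1 point per library (circles, 2 CreER libraries; squares, 1 O4AID library). Lin28a, Lin28b and Utf1 sit far lower in O4AID, and Dppa5a and Spp1 sit higher.

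Lin28a differed most. It had 569.7 and 613 CPM in untreated CreER and 2.53 CPM (111 reads) in untreated O4AID, a log2 difference of -7.39 on CPM plus 1, the pseudocount used for all such ratios here. Lin28b had 62.2 and 68.6 CPM against 0.729 CPM (32 reads), a log2 difference of -5.26, and Utf1 had 171 and 142 CPM against 5.12 CPM (225 reads), a log2 difference of -4.68. Spp1 went the other way, with 86.7 and 79.6 CPM in CreER and 491 CPM in O4AID (log2 difference 2.55), as did Dppa5a with 499 and 566 against 1344 CPM (1.34). L1td1 differed by -1.38, and Trim28, Dppa4 and Dppa2 differed by -0.96, -0.93 and -0.84. With 1 untreated O4AID library these differences have no test. They also use only the reads counted for the genes themselves. Processed pseudogenes aligning to Dppa2, Dppa4 and Dppa5a summed to 44.9, 16.9 and 62.4 CPM in untreated CreER. In untreated O4AID they summed to 0.752, 0.843 and 0.0683 CPM. The differences between the lines with those reads added were not tested. A difference of at least 2-fold, found for 6 of the 9 genes, was found for 36.8% of the 14049 genes with a mean of 50 or more reads over the 3 untreated libraries, whose median difference was 0.17.

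Other genes that differed between the untreated lines are given here as values, chosen after they were seen. Dnmt3l, the cofactor of the de novo methyltransferases, had 595 and 591 CPM in untreated CreER and 2.23 in O4AID, and Myc 24.2 and 24.7 CPM against 0.0228 (1 read). The 5 formative markers summed to 642 and 646 CPM in CreER and 106 in O4AID, of which the de novo methyltransferase gene Dnmt3b made up 581 and 578 CPM in CreER and 100.4 in O4AID, with Fgf5 at 0 in O4AID. Their part in the members' levels was not tested.

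**Figure D2:**
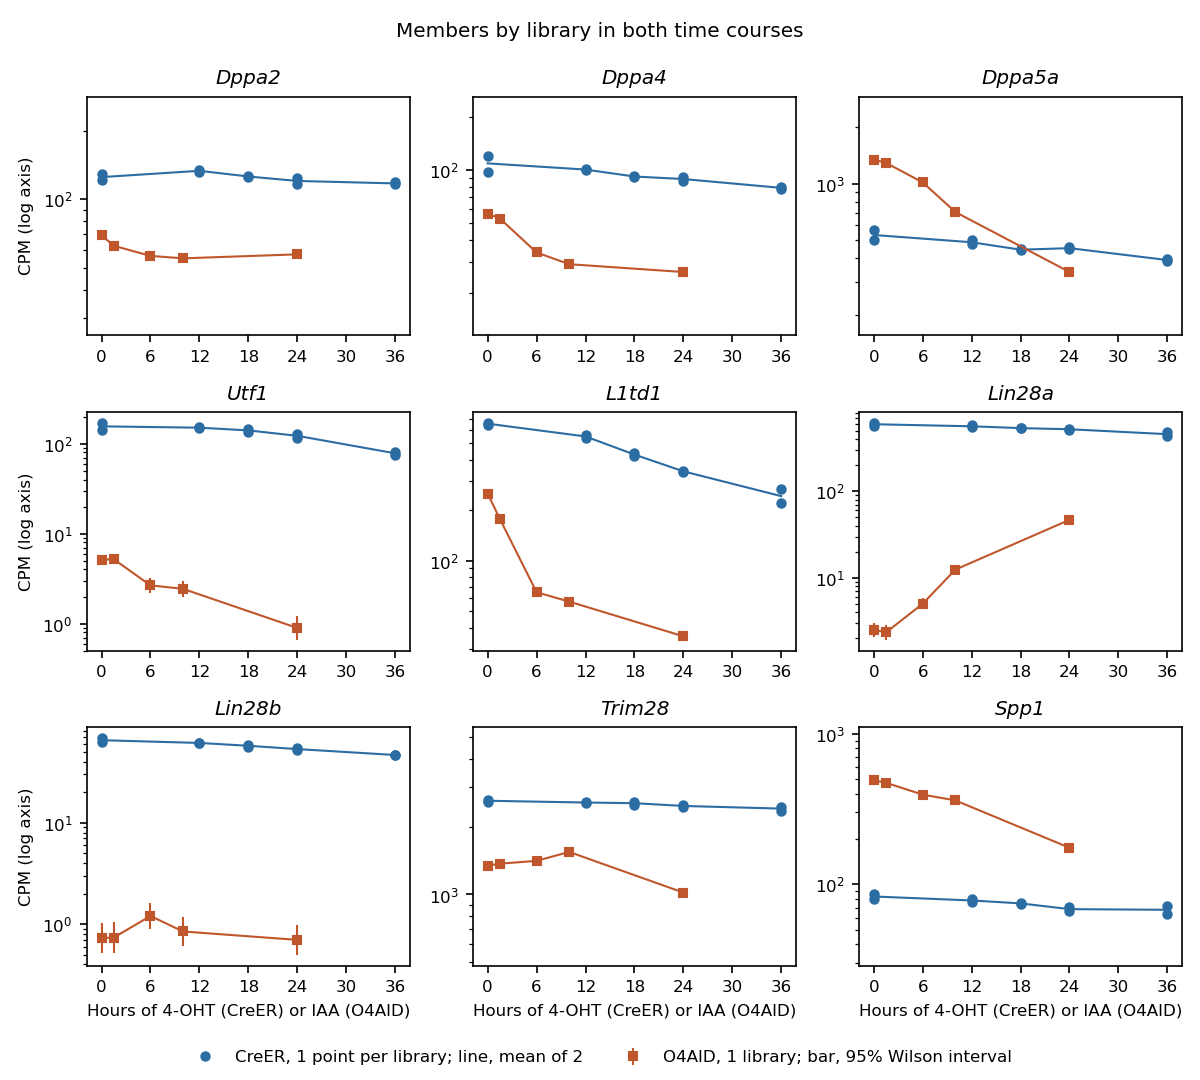
CPM of each gene (log axis, range set per panel) against hours of 4-OHT in CreER (circles, 1 per library, with a line through the mean of 2) or of IAA in O4AID (squares, 1 library each joined by a line, bars giving the 95% Wilson interval of the read share). L1td1 descends in both courses, and Lin28a ascends in O4AID from 2.53 to 46.7 CPM while it descends in CreER.

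The CreER course asked how expression changed as Pou5f1 was deleted over 36 h. None of the 9 genes was called at 12 h (edgeR quasi-likelihood test, adjusted p under 0.05 over 18969 genes). By 18 h 5 were lower, by 24 h 7 and by 36 h 8, and none was called higher. At 12 h, 3 of 9 had an unadjusted p under 0.05, against 8.58% of all genes, among them Dppa2 with a positive log2 fold change (0.093), and 1 gene, L1td1, was called by DESeq2. The share of all genes called lower was 0.132%, 3.86%, 11.1% and 18.1% at 12, 18, 24 and 36 h. The median log2 fold change of the 9 genes was -0.09, -0.15, -0.28 and -0.44 at the 4 times, while the median over all genes lay between -0.00422 and 0.00594. These comparisons share the 2 untreated libraries. The counts before 36 h depend on single libraries. Without the first untreated library 2 genes were called at 12 h, and without either 36 h library 1 was. At 18 h, 2 were called without either 18 h library and 3 without the second untreated library or either 12 h library, and at 24 h, 4 without the first 24 h library.

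**Figure D3:**
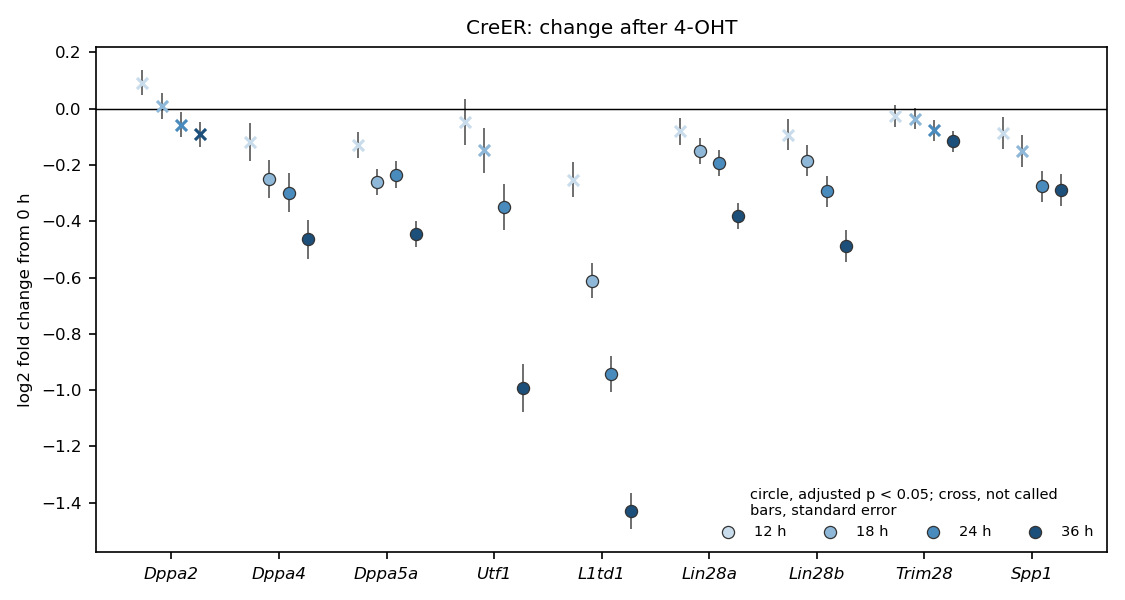
Log2 fold change from 0 h of each gene at 12, 18, 24 and 36 h of 4-OHT in CreER (2 libraries per time; bars, standard error; circles, adjusted p under 0.05; crosses, not called). L1td1 reaches -1.43 and Utf1 -0.99 at 36 h, and Dppa2 is not called at any time.

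L1td1 (chr4:98726734-98738480, plus strand, GRCm38) fell furthest. Its expression was 647 and 662 CPM untreated, then 539.7 and 559.8 by 12 h, 422 and 436 by 18 h, 339 and 342 by 24 h and finally 266 and 219 by 36 h. Each time lay wholly below the one before it, and the 36 h mean was 37.0% of the untreated mean. The log2 fold change was -0.61 ± 0.06 at 18 h (SE, n = 2 per time, adjusted p = 1.6e-05, edgeR), -0.94 ± 0.06 at 24 h (3.2e-08) and -1.43 ± 0.06 at 36 h (6.8e-11). L1td1 was also the single member called in the steps from 12 to 18 h (-0.36 ± 0.06, adjusted p = 0.0085) and from 18 to 24 h (-0.33 ± 0.06, 0.013), where 0.496% and 0.585% of all genes were called lower. The first step's call was lost without the second 12 h library or either 18 h library, and the second step's without any of the 18 and 24 h libraries, while without the first untreated library 2 members were called in it. At 12 h it was at -0.25 ± 0.06 and was not called (0.12), though it was called by DESeq2 (0.018) and under 5 of the other alternatives.

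Utf1 (chr7:139943789-139945112, plus strand, GRCm38) fell late. It was at 171 and 142 CPM untreated, then 149.5 and 152 by 12 h, 145 and 137 by 18 h, 117 and 128 by 24 h and finally 81.9 and 74.8 by 36 h. The untreated libraries straddled those of 12 h, and only the 24 and 36 h libraries lay below all earlier ones. The change was -0.35 ± 0.08 at 24 h (SE, n = 2 per time, adjusted p = 0.012, edgeR) and -0.99 ± 0.09 at 36 h (4.3e-06), when 50.2% of the untreated mean was left. The step from 24 to 36 h alone was -0.64 ± 0.09 (adjusted p = 0.00055), in a step where 5 of the 9 genes and 6.53% of all genes were called lower. That count was 3 without either 24 h library or the second 36 h library. The 24 h call of Utf1 was lost without the first 24 h library (adjusted p = 0.063) and when only the 4 libraries compared were fitted (0.052).

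The adjacent pair Dppa4 and Dppa2, 16185 bases apart on chromosome 16 (GRCm38), gave different calls. Dppa4 (chr16:48283735-48294292) was at 97.8 and 120.1 CPM untreated, then 101.6 and 99.4 by 12 h, 92.0 and 91.5 by 18 h, 86.5 and 91.1 by 24 h and finally 78.4 and 79.9 by 36 h. Its untreated libraries were the most widely spread pair, and the 36 h ones lay below every other. The 36 h change was -0.46 ± 0.07 (SE, n = 2 per time, adjusted p = 5.8e-05, edgeR), and the earlier calls (-0.25 at 18 h, -0.30 at 24 h) were lost without the second untreated library (adjusted p = 0.41 and 0.080) and under 5 and 2 other alternatives. Dppa2 (chr16:48310477-48319723) stayed between 116 and 135 CPM in the 10 libraries and was not called at any time, with -0.09 ± 0.05 at 36 h (adjusted p = 0.12). With reads scaled to total counts it was at -0.16 and was called (0.0078). The difference between the 2 genes in their change was not tested.

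Dppa5a (chr9:78367052-78368177, minus strand) was at 499 and 566 CPM untreated, then 476 and 498 by 12 h, 446 and 443 by 18 h, 459.8 and 446 by 24 h and finally 394 and 389 by 36 h. Every treated library lay below both untreated ones, and the level at 18 and 24 h was nearly flat (step 0.03 ± 0.05, adjusted p = 0.89, edgeR). The change was -0.26 ± 0.05 at 18 h (SE, n = 2 per time, adjusted p = 0.00046, edgeR) and -0.44 ± 0.05 at 36 h (1.5e-08). Processed pseudogenes that align to 3 members over at least 150 bases at 95% identity or more could share reads with them. The reads counted for them over all libraries came to 4.90% of those of Dppa5a (4 copies), 13.2% of those of Dppa4 (2) and 25.4% of those of Dppa2 (2). These shares pool both courses, and the copies had few reads in O4AID. In untreated CreER the copies summed to 62.4, 16.9 and 44.9 CPM, beside means of 532, 109 and 125 CPM for the genes in that order. With the reads of the copies added, the mean log2 change at 36 h was -0.43 for Dppa5a, -0.41 for Dppa4 and -0.11 for Dppa2. Without them it was -0.44, -0.45 and -0.09 on the scale of CPM plus 1.

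The mean levels of Lin28a and Lin28b were lower at each later time. Lin28a (chr4:134003330-134018841, minus strand) was at 569.7 and 613 CPM untreated, then 546 and 573 by 12 h, 534 and 532 by 18 h, 512 and 523 by 24 h and finally 479 and 429 by 36 h. From 18 h on its libraries lay below both untreated ones, with changes of -0.15 ± 0.05 at 18 h (SE, n = 2 per time, adjusted p = 0.048, edgeR), -0.19 ± 0.05 at 24 h (0.0040) and -0.38 ± 0.05 at 36 h (2.9e-07). The 18 h call sat at the threshold and was lost under 9 of the alternatives, and the 24 h call without the second untreated or the first 24 h library (adjusted p = 0.078 and 0.061). Lin28b (chr10:45376620-45470201, minus strand) was at 62.2 and 68.6 CPM untreated, then 61.5 and 61.4 by 12 h, 56.6 and 58.6 by 18 h, 52.2 and 54.7 by 24 h and finally 46.8 and 46.6 by 36 h, each time below the one before. Its change was -0.18 ± 0.05 at 18 h (adjusted p = 0.031), -0.29 ± 0.05 at 24 h (0.00023) and -0.49 ± 0.06 at 36 h (6.5e-08), which left 76.8% of Lin28a and 71.4% of Lin28b. The 18 h call of Lin28b was lost under 7 of the alternatives.

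Trim28 and Spp1 changed least among the genes called. Trim28 (chr7:12999114-13031035, plus strand) kept between 2356 and 2638 CPM through the course, with -0.12 ± 0.04 at 36 h (SE, n = 2 per time, adjusted p = 0.017, edgeR). That call was lost without the first untreated library (0.079), without the first 36 h library (0.088) or when only the 4 libraries compared were fitted (0.14). Spp1 (chr5:104435118-104441050, plus strand) was at 86.7 and 79.6 CPM untreated, then 80.3 and 76.3 by 12 h, 75.9 and 73.9 by 18 h, 70.8 and 66.3 by 24 h and finally 71.9 and 63.9 by 36 h. Its libraries at 24 and 36 h overlapped each other and lay below those at 0 h, with -0.28 ± 0.06 at 24 h (adjusted p = 0.00071) and -0.29 ± 0.06 at 36 h (0.00022).

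The O4AID course asked the same after the OCT4 protein itself was removed. With 1 library per time there is no replicate check and no test, so each ratio to 0 h is given with a 95% interval from Wilson intervals of the read shares, which covers counting error only. At 24 h, 5 of the 9 genes were at least 2-fold lower (Dppa4, Dppa5a, Utf1, L1td1 and Spp1), against 3.71% of the genes with a mean of 50 or more reads, and 1, Lin28a, was at least 2-fold higher, against 4.72%. At 1.5 h none had moved 2-fold (0.0815% of genes lower), and at 6 and 10 h L1td1 alone was 2-fold lower (0.728% and 1.31%). Lin28a was 2-fold higher at 10 h (1.35%). The median log2 ratio of the 9 genes was -0.06, -0.32, -0.44 and -1.07 at 1.5, 6, 10 and 24 h, and that over the genes with a mean of 50 or more reads stayed between -0.05 and -0.01. Lin28b, with a mean of 32 reads over 0 and 24 h, lay under that minimum. Of the 8 members that met it at 24 h, 5 were at least 2-fold lower, and their median was -1.28. All of these ratios share the untreated library.

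**Figure D4:**
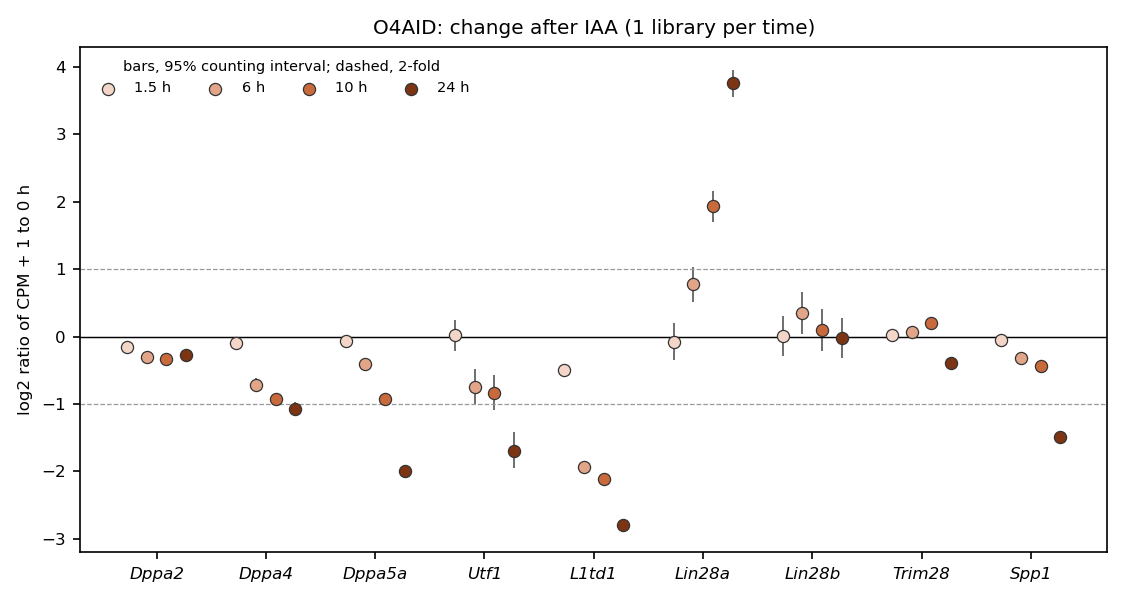
Log2 ratio of CPM plus 1 to the 0 h library for each gene at 1.5, 6, 10 and 24 h of IAA in O4AID (1 library per time; bars, 95% counting interval; dashed lines, 2-fold). L1td1 reaches -2.79 and Dppa5a -1.99 at 24 h, and Lin28a reaches 3.76.

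L1td1 was again the lowest. It went from 251 CPM untreated to 177 (1.5 h), 64.9 (6 h), 57.1 (10 h) and 35.5 (24 h). Most of that fall was in place by 6 h, when 25.9% of the untreated level was left, and 14.2% was left at 24 h. The log2 ratio was -0.50 (95% counting interval -0.54 to -0.46) after 1.5 h of IAA, -1.93 (-1.99 to -1.87) after 6 h and -2.79 (-2.86 to -2.71) after 24 h. It was the member furthest from 0 at 1.5 h.

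Dppa5a and Spp1, the 2 genes with the higher untreated level in this line, were lower at each later time. Dppa5a went from 1344 CPM untreated to 1291 (1.5 h), 1016 (6 h), 706 (10 h) and 338 (24 h), a log2 ratio of -1.99 (95% counting interval -2.01 to -1.96). Spp1, whose intron holds the element printed above, was at 491, 472, 394, 361 and 175 CPM at the same times, and its ratio was -0.32 at 6 h, -0.44 at 10 h and -1.48 (-1.52 to -1.45) at 24 h. For both, the largest single step was the last, from 10 to 24 h, which was also the longest interval. At 10 h, 52.5% of Dppa5a and 73.5% of Spp1 were left, and at 24 h 25.1% and 35.7%. Change per hour was not compared.

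Dppa4 went from 56.5 CPM untreated to 53.0 (1.5 h), 34.04 (6 h), 29.2 (10 h) and 26.4 (24 h). Its ratio was -0.71 (95% counting interval -0.81 to -0.62) at 6 h and -1.07 (-1.17 to -0.97) at 24 h, with most of the difference present at 6 h. Scaling to total counts gave -0.94 at 24 h, short of 2-fold. Dppa2 was at 69.5, 62.5, 56.3, 55.0 and 57.2 CPM, between 79.1% and 82.4% of its untreated level from 6 h on. Utf1 was low in this line, with 225, 219, 104, 95 and 41 reads at the 5 times in order. That is 5.12 CPM falling to 0.895 CPM, or 17.5% of the untreated level, with a ratio on CPM plus 1 of -1.69 (-1.94 to -1.42).

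Lin28a took the opposite course. Its reads numbered 111, 99, 197, 486 and 2140 at the 5 times, or 2.53, 2.35, 5.04, 12.4 and 46.7 CPM. The level was 18.5 times the untreated one at 24 h, with a log2 ratio of 0.78 (95% counting interval 0.52 to 1.03) after 6 h of IAA, 1.93 (1.70 to 2.15) after 10 h and 3.76 (3.55 to 3.95) after 24 h. Even so, 46.7 CPM was far under the lowest CreER library, 429 CPM at 36 h. Lin28b had 32, 31, 47, 33 and 32 reads at the 5 times and a ratio of -0.03 (-0.32 to 0.27) at 24 h. Antisense gene Gm13061, which overlaps 234 exon bases of Lin28a, had 31 reads over all 15 libraries against 149132 for Lin28a.

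Trim28 went from 1344 CPM untreated to 1371 (1.5 h), 1411 (6 h), 1546 (10 h) and 1019.7 (24 h), a ratio of 0.20 (95% counting interval 0.19 to 0.22) at 10 h and -0.40 (-0.42 to -0.38) at 24 h. Neither reached 2-fold. The counting intervals are narrow because the gene had 46707 reads or more in each library, and they leave out the spread between cultures.

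At 24 h, the time both courses share, the CreER mean lay below that of 0 h for all 9 genes and the O4AID value for 8, with Lin28a the exception and Lin28b within its counting interval of no change. The log2 fold change was below 0 for 49.1% of all genes tested in CreER. In O4AID the ratio was below 0 for 54.3% of the genes with a mean of 50 or more reads. Scaled to CPM plus 1, the 24 h log2 change in the first and second CreER libraries, each against the mean of the untreated pair, and in O4AID was -0.95, -0.93 and -2.79 for L1td1, -0.21, -0.25 and -1.99 for Dppa5a, and -0.23, -0.32 and -1.48 for Spp1. It was -0.41, -0.27 and -1.69 for Utf1, -0.32, -0.25 and -1.07 for Dppa4, -0.10, -0.02 and -0.28 for Dppa2 and -0.09, -0.06 and -0.40 for Trim28. For these 7 of the 9 genes the O4AID value lay below both CreER values, against 49.4% of the genes with a mean of 50 or more reads. Lin28a was at -0.21 and -0.18 in CreER and at 3.76 in O4AID. The difference between the courses was not tested, since O4AID has 1 library at each time.

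Genes listed around each member, in lists also chosen with earlier results of these data known, gave the following background. Of 15 other ESC-restricted genes, 14 were tested in CreER, of which 12 were called lower and 1 higher at 36 h, against 18.1% and 18.6% of all genes. Those called lower included Tdgf1, the Nodal co-receptor (-1.42 ± 0.05, SE, adjusted p = 3.6e-18, edgeR), the TGF-beta family ligand Gdf3 (-1.07 ± 0.06, 1.2e-14) and Fgf4 (-0.74 ± 0.05, 2.7e-13). In O4AID at 24 h, 10 of 15 were at least 2-fold lower and 1 higher, against 3.71% and 4.72% of the genes with a mean of 50 or more reads. Fgf4 was at -3.12 and Ooep, of the oocyte subcortical complex, at -2.46. Dppa1, a further gene of the developmental pluripotency set, went from 0.979 to 8.54 CPM (2.27).

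Among 8 genes that process let-7 precursors or act with them, 2 were called higher and 1 lower in CreER at 36 h, against 18.6% and 18.1% of all genes. Drosha, the nuclear RNase of microRNA precursors, was at -0.31 ± 0.05 (SE, adjusted p = 2.0e-05, edgeR), Ago2, the effector of silencing, at 0.20 ± 0.05 (0.0048) and the terminal uridylyltransferase gene Zcchc6 at 0.16 ± 0.06 (0.034). None moved 2-fold in O4AID at 24 h, the furthest being Dgcr8 at 0.64. Of 11 textbook let-7 targets, 5 were called lower and 2 higher in CreER at 36 h, beside the same shares of all genes. Myc (-1.22 ± 0.09, adjusted p = 8.7e-12) and Mycn (-0.85 ± 0.05, 2.6e-14) fell, while Arid3a (0.90 ± 0.08, 4.3e-09) and Hmga2 (0.82 ± 0.10, 5.4e-06) rose. In O4AID at 24 h Mycn was at -1.54 and Hmga2 at 1.19. The let-7 RNAs themselves are too short for these libraries and were not measured.

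Of 13 silencing partners of TRIM28, 8 were called lower and none higher in CreER at 36 h, against 18.1% and 18.6% of all genes, with a median of -0.16. Zfp57, the KRAB zinc finger gene that guards imprints, was at -0.67 ± 0.05 (SE, adjusted p = 1.8e-11, edgeR) and Cbx1, a heterochromatin protein gene, at -0.53 ± 0.05 (1.1e-09), both beyond Trim28 itself. Atf7ip (-0.42) and Morc3 (-0.39) also fell. In O4AID at 24 h Zfp57, from 206 to 68.8 CPM (-1.57), was the single partner at least 2-fold lower (3.71% of genes with enough reads), with Uhrf1 at -0.72, Smarcad1 at -0.68 and Trim24 at -0.54.

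Of 10 osteopontin receptor genes, 9 were tested in CreER, and 3 were called lower and 2 higher at 36 h, against 18.1% and 18.6% of all genes. Itga9 was at -0.64 ± 0.08 (SE, adjusted p = 2.2e-07, edgeR), Cd44 at 0.59 ± 0.16 (0.0043), Itgav at 0.33 ± 0.05 (1.9e-05) and Itgb1 at -0.17 ± 0.04 (0.0014). In O4AID at 24 h, 2 of 7 with enough reads were at least 2-fold lower, against 3.71% of such genes: Itga8, from 28.4 to 3.17 CPM (-2.82), and Itgb3, from 16.1 to 6.83 CPM (-1.12). Of 5 neighbours in the Spp1 gene cluster, Pkd2 alone had enough reads and was not called in CreER at 36 h. It was at 0.80 in O4AID at 24 h.

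Of 8 early-embryo genes linked to DPPA2 and DPPA4, 4 were called higher and none lower in CreER at 36 h, against 18.6% and 18.1% of all genes, while 2 of 5 with enough reads were at least 2-fold lower in O4AID at 24 h, against 3.71%. Zscan4c was at 0.30 ± 0.06 (SE, adjusted p = 0.00033, edgeR) in CreER and at -0.88 in O4AID, and Zfp352 at 0.55 ± 0.15 (0.0051) and -1.06. Several of these are multicopy genes whose reads could be split between copies, so their values are uncertain. Zfp352 was low in both courses, from 3.35 to 4.95 CPM in CreER and from 2.41 to 0.633 CPM in O4AID.

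The genes whose pattern was most like that of a member were sought over the 15 libraries by Pearson correlation of log2 CPM plus 1, centred within each course, among 11453 genes with a mean of at least 5 CPM. The libraries of a course share their line and untreated state, so the values are descriptions. For L1td1 they were Kdm3a (r = 0.997), a histone demethylase gene, and 1700019D03Rik (0.991). For Dppa5a they were Ube2s and Arl6ip4 (0.991 and 0.990), for Dppa4 Umps and Rbpj (0.977 and 0.971), and for Utf1 Ctbp2 and Nol9 (both 0.983). For Spp1 they were Spag7 (0.983) and Fgf4 (0.980), and for Lin28a Acsl5 (0.983) and Cgnl1 (0.981), which stood at 1.21 and 1.50 in O4AID at 24 h. The correlations were lower for the remaining members. They were 0.963 and 0.956 for Trim28 (Loxl3 and Pipox) and 0.912 and 0.906 for Dppa2 (Brca2 and Zfp296). Lin28b, with 32 reads in untreated O4AID, had Gm9755 and G2e3 (0.938 and 0.930).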

How the data were processed

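Total RNA of the 15 samples was ribosome-depleted and made into directional libraries. Per the labels and the study's methods, the authors trimmed reads with Trim Galore 0.1.4, aligned them with TopHat2 2.1.0 to GRCm38 and counted them with featureCounts 1.5.1, and the deposited values used here are raw counts per gene. Strand and multimapping settings of the counting are not given in the sources used here, so reads of overlapping, antisense and near-identical genes can be shared. The authors' normalized table was not used, nor was their NOISeq test, which simulates replicates. Of 48801 entries, 92 spike-in entries without reads were set aside.

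Counts were scaled by TMM factors over all libraries (CPM) and, for levels between genes, divided by exon length. CreER was fitted in edgeR 4.0.16 (R 4.3.3) with the quasi-likelihood test over 10 libraries, for 18969 genes that passed filterByExpr, with Benjamini-Hochberg adjustment, and called at an adjusted p under 0.05. Standard errors are the log2 fold change over the root of F. O4AID ratios used CPM plus 1, with 2-fold as the call and a minimum mean of 50 counts for shares of all genes. Code was tested on simulated data. Alternatives were RLE, total-count and own-course TMM scaling, filters, DESeq2 1.42.0, fewer libraries, a replicate block, leaving out each replicate, pseudocounts of 0.1 and 5, and the 1.5 h library as reference. PCR reads carry no molecular identifiers, so intervals cover counting error only.

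The 2 libraries of each CreER time differed by more than sampling noise (chi-square per degree of freedom 3.27 to 7.76). Same-numbered CreER replicates did not deviate together (r from -0.04 to 0.08 over 10 pairs), so the main fit has no block. The members and gene lists were chosen with earlier results of these data known. In the lists, genes named were the 4 furthest called at 36 h in CreER and the 4 furthest at 24 h in O4AID, except for a gene that is not reported here; Zcchc6 was matched by an older symbol.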

Additional observations from a re-analysis of the deposited data

Results flagged for a closer look

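Of 46 genes examined, 4 lay beyond both untreated libraries one way in CreER at 24 h and moved the opposite way in O4AID, beyond the 95% counting interval. The share of all genes that meet this rule is not given here, so the count has no background to be read against. The difference between the courses was not tested, because O4AID has 1 library at each time. Lin28a, the only member among them, was at 3.76 (3.55 to 3.95) in O4AID and at -0.19 in CreER, on the log2 scale of CPM plus 1. Ago2 was at -0.34 (-0.37 to -0.31) in O4AID and at 0.14 in CreER. Itga9 was at 0.35 (0.05 to 0.63) against -0.26, and Itgb1 at 0.20 (0.16 to 0.24) against -0.16.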

How the results depend on the processing

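Of 648 recomputed CreER fold changes of single members, 598 kept direction and side of the threshold, 32 lost the call, 13 gained one and 5 turned direction; none of the 5 was called. These were Dppa2 at 18 h under RLE scaling (-0.000854) and total-count scaling (-0.000355), and 3 that rest on 1 untreated library, each given with its range when 1 library was left out: Dppa4 at 12 h (-0.26 to 0.040), Utf1 at 12 h (-0.18 to 0.091) and Dppa2 at 18 h (-0.030 to 0.050). At 36 h, 7 of the 8 genes called kept their call in all 18 alternatives, and Trim28 lost it in 3, while Dppa2 gained one with total-count scaling. Leaving out 1 library at a time gave 0 to 2 genes called at 12 h, 2 to 5 at 18 h, 4 to 7 at 24 h and 7 to 8 at 36 h, and 0 to 1, 0 to 2 and 3 to 6 in the steps to 18, 24 and 36 h. At 12 h, 1 gene was called with total-count scaling, without the low-count filter, with only the 4 libraries compared and in DESeq2, and at 18 h, 3 were called in the last 2 of these. Total-count scaling called 8 genes in the step from 24 to 36 h and 1 of the let-7 processing genes at 36 h. The replicate block left 0.053 for Lin28a at 18 h, lost that call and changed no other among the members. No other count moved by over 1.5 times with the block.

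In O4AID, a pseudocount of 0.1 gave 2 genes at least 2-fold lower at 10 h, and a pseudocount of 5 gave 3 at 24 h with a median over the 9 genes of -0.78; total-count scaling gave a median of -0.94 and moved the median of all genes by 0.13 at 24 h and by -0.10 in the CreER step from 24 to 36 h. The causes were not tested. Adding pseudogene reads, an alternative chosen after seeing the data, gave 24 h ratios of -0.28, -1.07 and -1.99 for Dppa2, Dppa4 and Dppa5a. Utf1 and Lin28b in O4AID, at 225 and 32 reads at 0 h, limit what that line can show.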

Other observations

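The processed pseudogenes of 3 members had reads almost only in one line. The 2 pseudogenes aligning to Dppa2 summed to 44.9 CPM in untreated CreER, of mixed 129SV and C57BL/6 background, and to 0.752 CPM in untreated O4AID, of 129SV background. Those aligning to Dppa4 summed to 16.9 and 0.843 CPM, and the 4 aligning to Dppa5a to 62.4 and 0.0683 CPM, although Dppa5a itself was higher in O4AID. At 36 h in CreER these sums were 40.6, 15.1 and 50.3 CPM.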
